A study of Mus musculus with 18 samples.

Results

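The respiratory chain genes described here are the nuclear genes for the subunits of the mitochondrial oxidative phosphorylation complexes, with the assembly factors whose names fall under the same rule. A gene was taken when its platform symbol starts with Nduf, Uqcr, Atp5 or Cox4 to Cox8, or is Sdha, Sdhb, Sdhc, Sdhd or Cyc1. This gave 114 rows of the value table and, with the brightest row kept for each symbol, 90 genes of 19454. Their mRNA was measured in bone marrow-derived macrophages, grown from the marrow of C57Bl/6 mice with the growth factor M-CSF. All cells had first received lipopolysaccharide (LPS), a bacterial cell wall component that activates macrophages, for 3 h. They were then placed in fresh medium with actinomycin D, which blocks transcription, together with SB203580, an inhibitor of the kinase p38, and harvested 0, 45 or 90 min later. The cells came from TTP-/- mice (KO), which lack tristetraprolin (TTP, encoded by Zfp36), or from wild-type mice (WT). There were 3 arrays for each of the 6 groups, KO at 0, 45 and 90 min and WT at 0, 45 and 90 min, and thus 18 arrays. The design asks which mRNAs are lost more slowly without TTP, a protein that binds AU-rich sequences in mRNAs such as that of Tnf and brings in the decay machinery. Time without transcription and time with the p38 inhibitor were the same variable.

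The respiratory chain passes electrons from NADH through complex I, and from succinate through complex II, to complex III and then by cytochrome c to complex IV, which reduces oxygen. Complexes I, III and IV pump protons across the inner mitochondrial membrane, and complex V, the ATP synthase, uses the returning protons to make ATP. A few core subunits are encoded by mitochondrial DNA, and the genes described here supply the rest from the nucleus. In macrophages activated with LPS, ATP production is known to move towards glycolysis, while electron flow through complexes I and II contributes to inflammatory signalling.

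Each value is an RMA signal, shown as log2 intensity. RMA scales the arrays to each other, so changes over time are relative to the other genes of the array, and a loss shared by all mRNAs does not show. The deposited arrays were not fully equal in scale, with medians from 7.41 to 8.19 in intensity. Centring each array on its median moved the median WT change at 90 min over all genes to 0.10, against -0.02 as deposited. Correlations between arrays of a group ran from 0.962 to 0.995, with no identical arrays. The number of arrays limits the precision. Whether the replicates are separate mice, cultures or preparations is not stated, and the p-values cover the spread among these 3 only, part of which may be technical. All 8 macrophage markers reached the signal limit, a log2 intensity of 3.03, while none of the 6 neutrophil, 5 T cell, 4 B cell and 2 erythroid markers measured did. Of the other cells, 3 of 6 fibroblast markers reached it, with a highest mean of 4.07, and 2 of 4 dendritic cell markers, with a highest mean of 3.23. Zfp36 averaged a log2 of 1.04 ± 0.32 lower in KO than in WT at 0 min (SE, limma adjusted p = 0.56). It measured 6.25, 6.75 and 6.81 in KO and 7.95, 7.86 and 7.12 in WT at that time. At 45 and 90 min it averaged 0.59 ± 0.32 and 0.87 ± 0.32 higher in KO. A low Zfp36 signal thus does not mark the KO arrays at every time. Tnf served as the mRNA with known TTP-dependent decay. Its log2 change from 0 to 90 min was -0.45 ± 0.18 in KO and -4.24 ± 0.18 in WT, which left 73.4% in KO and 5.31% in WT. Sample numbers in the titles fall into a lower run, replicate 3 of every group (series A), and a higher run, replicates 1 and 2 (series B). The medians of the 90 min changes are given for both, and series A, with 1 array per group, allows no test.

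Of the 90 genes, 84 reached the signal limit in at least 1 group and were tested. They were all 34 genes of complex I, all 4 of complex II, all 9 of complex III, 13 of 18 of complex IV, all 17 of complex V and 7 of 8 assembly factors. The 6 that stayed below the limit in every group were Cox6b2, Cox7b2, Cox8b, Cox8c and Ndufa4l2 of complex IV and the assembly factor Ndufaf6. Their means over 18 arrays ran from 1.54 for Cox7b2 to 2.72 for Cox6b2. Signals of different genes come from different probes and do not order their mRNA levels, so each is read only against the signal limit.

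Complex IV separated by tissue isoform. The forms known from most tissues were far above the limit, with means over all arrays of 8.16 for Cox4i1, 7.74 for Cox6a1, 8.75 for Cox6b1, 7.32 for Cox7a2, 7.73 for Cox7b and 7.01 for Cox8a. The forms known from heart and skeletal muscle were at 3.06 for Cox6a2, 4.32 for Cox7a1 and 2.12 for Cox8b. Cox7a1 was thus the 1 muscle form above the limit on every array, between 4.02 and 4.81. Cox4i2, the form known from lung and from low oxygen, averaged 3.07 and lay on both sides of the limit. Forms known from testis were below it, with means of 2.72 for Cox6b2, 1.54 for Cox7b2 and 2.62 for Cox8c. Ndufa4, once assigned to complex I and now to complex IV, averaged 8.79, and its relative Ndufa4l2, known as a gene induced by low oxygen, averaged 2.62. In complex V, the genes Atp5g1, Atp5g2 and Atp5g3, which encode the same mature c subunit of the proton-driven ring, averaged 6.73, 8.33 and 8.48 and were all expressed.

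**Figure D1:**
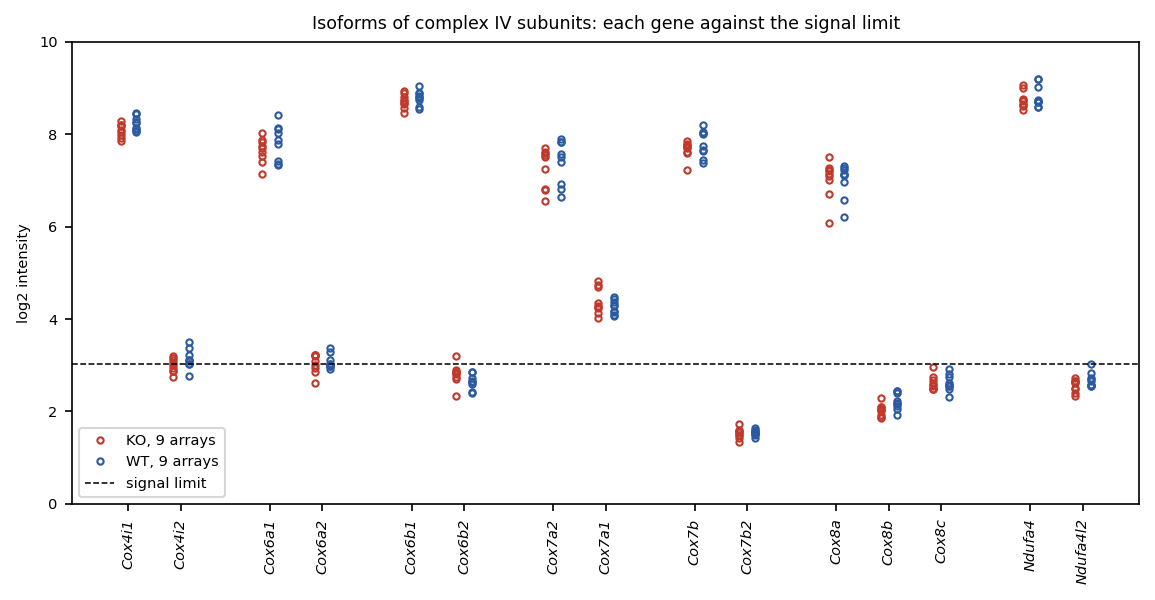
Log2 intensity of the isoform pairs of complex IV on each array, with KO arrays (red) left of WT arrays (blue) and the signal limit of 3.03 dashed. Cox4i1, Cox6a1, Cox6b1, Cox7a2, Cox7b, Cox8a and Ndufa4 lie far above the limit on all 18 arrays, while Cox7b2, Cox8b and Cox8c lie below it on all of them.

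The 2 genes with the brightest probes in each complex were named by rule, and their signals say nothing of how their mRNA levels compare. In complex I they were Ndufc2 (7.88) and Ndufa10 (7.78), both accessory subunits. In complex II they were the flavoprotein Sdha (8.42) and the membrane anchor Sdhc (7.60), and in complex III the subunit Uqcrb (8.47) and the core protein Uqcrc2 (8.18). In complex IV they were Cox5b (8.85) and Ndufa4 (8.79), and in complex V Atp5b (10.12) and Atp5a1 (9.88), the catalytic beta and the alpha subunit of the F1 head. Among assembly factors they were Cox7a2l (7.23), which helps to join complexes III and IV, and Ndufaf3 (5.29), which acts in complex I assembly. The spread between arrays of a group was small for most genes. The pooled SD within groups had a median of 0.22 over the 84 genes, against 0.25 over all 10258 genes tested. It was lowest for Atp5a1 (0.07) and Ndufa8 (0.10) and highest for Cox7a2 (0.51), Cox6c (0.47) and Ndufs6 (0.45).

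**Figure D2:**
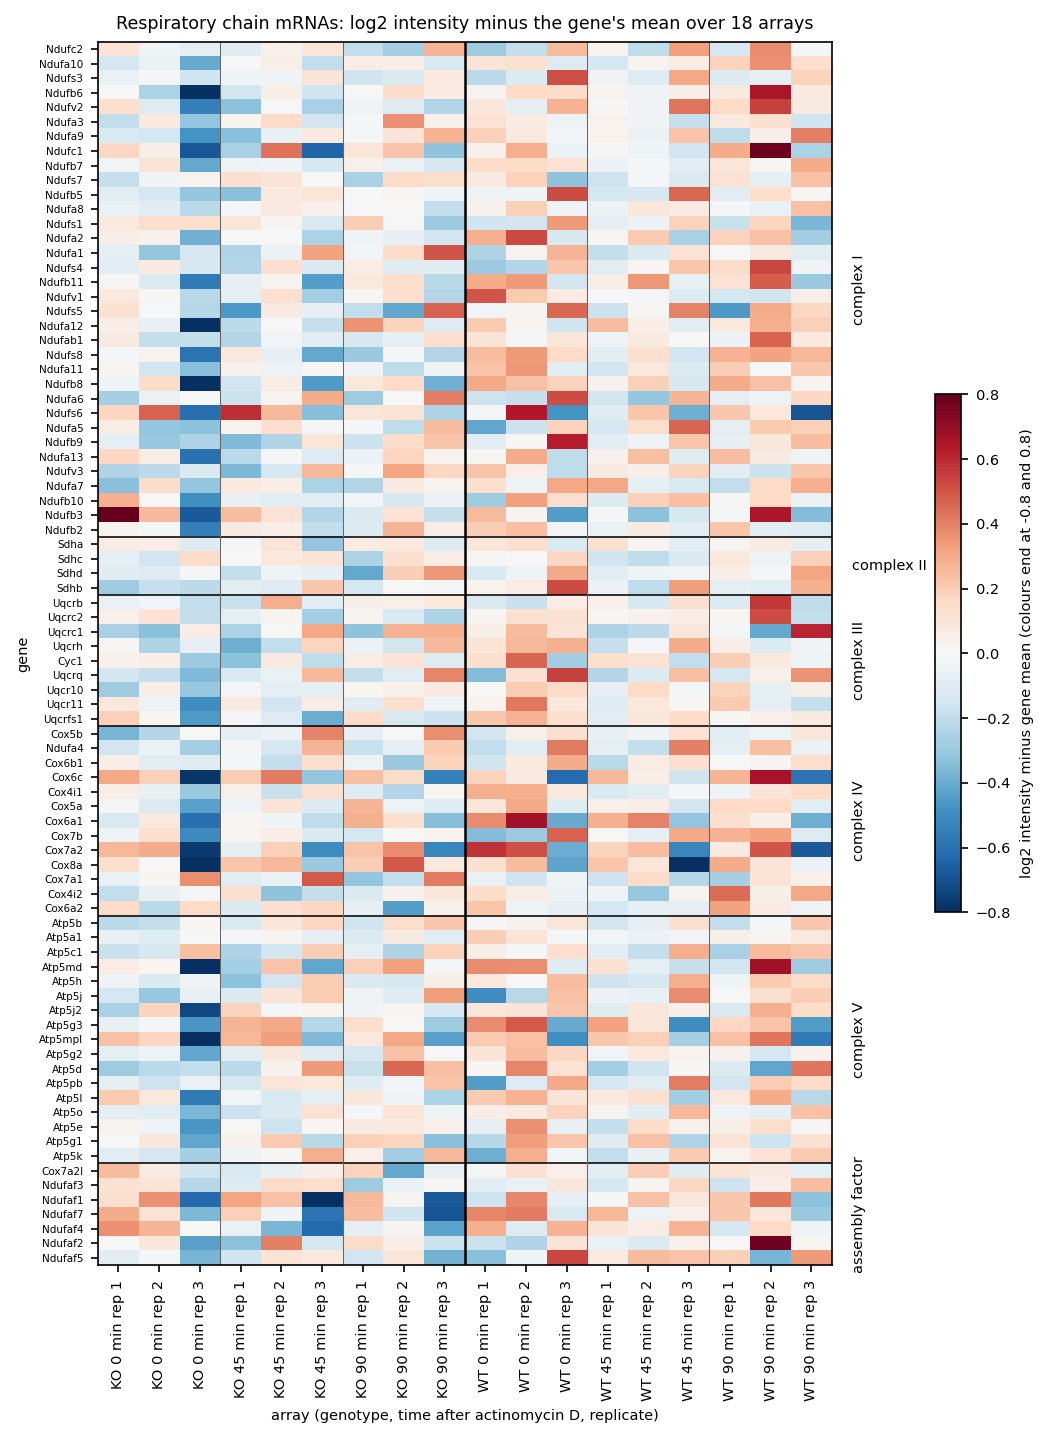
Log2 intensity of each of the 84 tested genes minus its own mean over 18 arrays, with genes grouped by complex (rows) and arrays by genotype and time (columns, KO left of WT). The blue column is replicate 3 of KO at 0 min, where the median deviation of the 84 genes is -0.31.

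No respiratory chain mRNA passed the test for a change during 90 min without transcription, in either genotype. In KO, 0 of 84 genes rose and 0 fell at 90 min against 0 min (limma, Benjamini-Hochberg over all genes, 0.05), where 0% of all 10258 genes rose and 0.224% fell. In WT, 0 rose and 0 fell, where 0.00975% of all genes rose and 1.22% fell. At an unadjusted p below 0.05, 4 genes were higher and 0 lower in KO (1.56% and 3.80% of all genes), and 0 were higher and 1 lower in WT (2.17% and 7.25%). The single changes ran from -0.37 to 0.52 in KO and from -0.34 to 0.37 in WT on the log2 scale.

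Relative to the other genes of the array, the intervals bound how much could have been lost. They are for single genes and are not adjusted for the number of genes tested. In KO, the 95% interval of the 90 min change stayed above a log2 of -1 for all 84 genes, against 93.1% of all genes tested. In WT it did so for 83 of 84 genes, against 91.1% of all genes. The exception was Cox7a2, the ubiquitous isoform of a small complex IV subunit, with a change of -0.26 and an interval from -1.03 to 0.51 in WT. Cox7a2 was also the gene with the largest spread. The tighter bound of -0.5 was met by 72 genes in KO and 59 in WT. The median half-width of these unadjusted intervals was 0.39, so losses smaller than that were not detectable for a typical gene. Larger changes could also fail the adjusted test. Tnf in WT lay far outside this range, with an interval from -4.62 to -3.85.

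**Figure D3:**
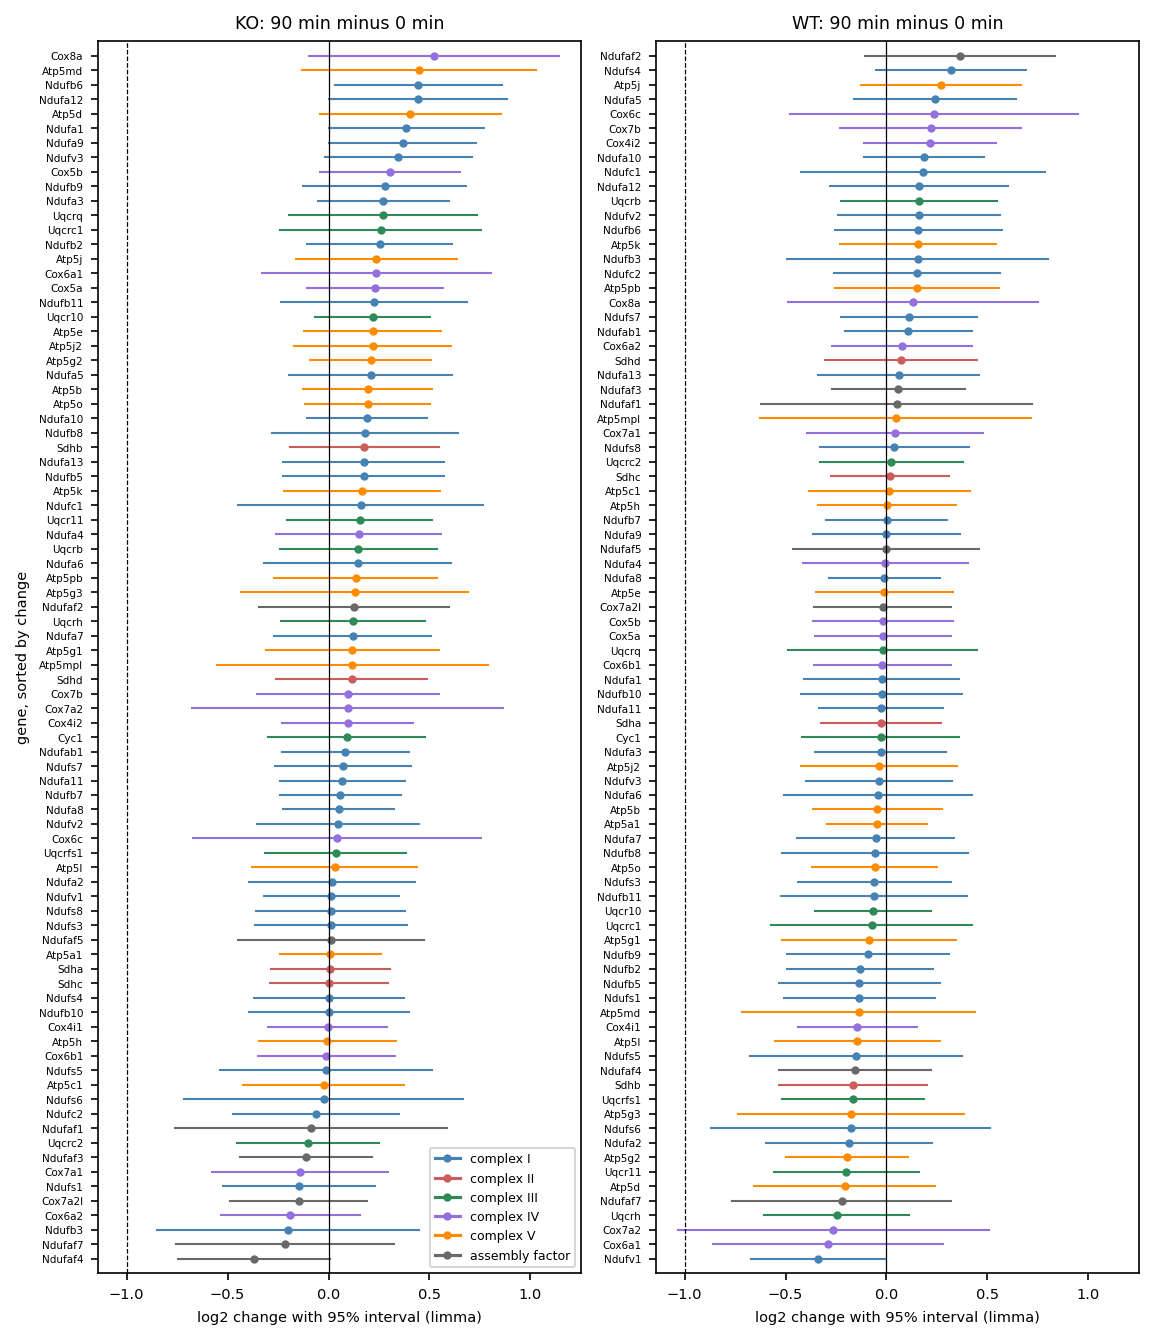
Log2 change at 90 min against 0 min with its 95% limma interval for each of the 84 genes, sorted within KO (left) and WT (right) and coloured by complex; the dashed line marks -1. All intervals but that of Cox7a2 in WT stay above the dashed line, and most cross 0.

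In KO, 67 of 84 genes had a positive 90 min change and 17 a negative one, with a median of 0.12. Of all 10258 genes, 5483 were positive in KO, with a median of 0.02. Also positive in KO were 46 of 66 ribosomal protein genes (median 0.07) and 26 of 38 proteasome subunit genes (median 0.06). Of 77 mitochondrial ribosomal protein genes, 42 were positive (median 0.04). In WT, 33 of the 84 respiratory chain genes were positive and 51 negative, with a median of -0.02, as was that of all genes. This WT direction turned with the scaling, to 46 positive and 38 negative after a further quantile normalization (median 0.01, all genes 0.03) and to 63 and 21 after median centring (median 0.09, all genes 0.10). The KO median was 0.31 in series A and 0.02 in series B. It was 0.01 without replicate 3 of KO at 0 min, so 1 array set its size. The WT median was -0.08 in series A and 0.01 in series B. By complex, the KO medians were 0.10 for complex I, 0.06 for complex II, 0.15 for complex III, 0.10 for complex IV, 0.17 for complex V and -0.11 for the assembly factors. The WT medians lay between -0.07 for complex III and -0.00 for the assembly factors.

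In complex I, the largest positive 90 min change in KO was that of Ndufb6, an accessory subunit of the membrane arm. It had log2 intensities of 7.48, 7.63 and 7.55 in KO at 90 min, against 7.48, 7.23 and 6.61 in KO at 0 min. The change of 0.45 ± 0.20 (SE, n = 3 arrays each) had a limma adjusted p of 0.87, and the 0 min array of replicate 3 stood apart from the others. The other genes with an unadjusted p below 0.05 in KO were also accessory subunits of complex I, Ndufa12 (0.44 ± 0.21), Ndufa1 (0.38 ± 0.18) and Ndufa9 (0.37 ± 0.17), with adjusted p of 0.93 each. In KO at 0 min, replicate 3 was also the lowest for Ndufa12 (6.35, 6.24 and 5.41) and Ndufa9 (7.12, 7.10 and 6.76). For Ndufa1 it was not (6.54, 6.29 and 6.48). Ndufb3, another membrane arm subunit, had a change of -0.20 ± 0.31, with values of 4.33, 4.56 and 4.26 in KO at 90 min and 5.27, 4.71 and 3.78 in KO at 0 min. Its groups overlapped.

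In WT, the most negative change was that of Ndufv1, the core subunit that binds NADH and the flavin FMN. It measured 6.33, 6.33 and 6.53 in WT at 90 min, against 6.98, 6.68 and 6.54 in WT at 0 min. These groups just failed to overlap, and the change of -0.34 ± 0.16 had an adjusted p of 0.52 and left 79.1% of the mRNA. In KO, Ndufv1 measured 6.49, 6.61 and 6.24 at 90 min and 6.56, 6.49 and 6.25 at 0 min, with full overlap. Ndufs4, an accessory subunit whose loss is known to cripple complex I, lay at the other end in WT, with 6.73, 7.11 and 6.55 at 90 min against 6.29, 6.35 and 6.80 at 0 min. Its change of 0.32 ± 0.18 had an adjusted p of 0.64, and replicate 3 ran opposite to the other replicates.

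Of complexes II and III, Sdha measured 8.49, 8.50 and 8.31 in KO at 90 min and 8.48, 8.48 and 8.31 in KO at 0 min. In WT it measured 8.44, 8.49 and 8.34 at 90 min and 8.52, 8.55 and 8.30 at 0 min. Replicate 3 was the lowest in each of these 4 groups. Uqcrc2 measured 8.21, 8.06 and 7.92 in KO at 90 min against 8.22, 8.29 and 7.99 at 0 min, and in WT 8.19, 8.70 and 7.98 at 90 min against 8.20, 8.30 and 8.30 at 0 min. The groups overlapped in both genotypes.

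In complex IV, Cox8a, the isoform of a small subunit known from most tissues, had the highest KO change. It measured 7.20, 7.50 and 7.09 in KO at 90 min, against 7.14, 7.01 and 6.08 in KO at 0 min. The change of 0.52 ± 0.29 had an adjusted p of 1.00, and it was 1.01 in replicate 3 and 0.28 in series B. The most negative complex IV changes in WT were those of Cox6a1 (-0.29 ± 0.27, adjusted p = 0.88) and Cox7a2. Cox7a2 measured 7.40, 7.83 and 6.65 in WT at 90 min and 7.90, 7.84 and 6.93 in WT at 0 min. Within each of these groups replicate 3 lay far below the others.

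In complex V, Atp5a1, the gene with the smallest spread, measured 9.77, 9.96 and 9.79 in KO at 90 min against 9.83, 9.79 and 9.88 in KO at 0 min, and 9.93, 9.90 and 9.97 in WT at 90 min against 10.08, 9.99 and 9.87 in WT at 0 min. All 18 arrays lay within 0.31 of each other. Atp5md, a small subunit of the membrane part, had a KO change of 0.45 ± 0.27 (adjusted p = 1.00), with 9.18, 9.31 and 8.97 at 90 min against 9.04, 9.00 and 8.08 at 0 min. Its 3 rows on the array gave KO changes of 0.45, 0.33 and 0.36. Atp5j, which encodes the F6 subunit of the peripheral stalk, had a WT change of 0.27 ± 0.19 (adjusted p = 0.78).

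Among the assembly factors, Ndufaf4, which acts early in complex I assembly, had the lowest KO change of all members, -0.37 ± 0.18 (adjusted p = 0.93), which left 77.3%. Ndufaf7, which methylates a core subunit of complex I, followed with -0.22 ± 0.26. Ndufaf2 had the highest WT change, 0.37 ± 0.22 (adjusted p = 0.72), and measured 4.11, 4.88 and 4.12 in WT at 90 min against 3.94, 3.87 and 4.21 in WT at 0 min. That value rests on replicate 2, the 1 array above the 0 min range.

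For some genes the 3 arrays at 90 min separated completely from the 3 at 0 min. In KO, 9 of 84 genes were higher on every 90 min array and 0 lower, where 5.64% of all genes were higher and 6.22% lower. They were Ndufa1, Ndufa9, Ndufb5, Ndufv3, Sdhb, Uqcrb, Atp5d, Atp5e and Atp5o. In WT, Ndufa10 was higher and 4 genes were lower (Ndufv1, Uqcrfs1, Uqcrh and Atp5g2), where 2.89% of all genes were higher and 7.24% lower. These genes, and those named below for separated arrays, were picked after their values were seen.

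At 45 min no gene passed either. In KO, 0 of 84 genes rose and 0 fell against 0 min, where 0% of all genes rose and 0.0487% fell, and by limma 0 were higher and 1 lower at an unadjusted p below 0.05 (1.4% and 3.86% of all genes). In WT, 0 rose and 0 fell, where 0% of all genes rose and 0.127% fell, and 0 passed an unadjusted p of 0.05 in either direction (1.38% of all genes were higher and 2.51% lower). The median change was 0.10 in KO and -0.09 in WT. For KO alone, series A gave 0.27 and series B -0.00. Ndufaf4 was the lowest in KO, at 4.30, 3.99 and 3.73 at 45 min against 4.71, 4.62 and 4.35 at 0 min. All of its 45 min arrays lay below all 0 min arrays, but narrowly, with 4.30 against 4.35 for the nearest arrays. The share of all genes that did so was not counted. The Ndufaf4 change of -0.56 ± 0.18 had an unadjusted limma p of 0.0063 and an adjusted p of 0.62. At 90 min its KO arrays were at 4.27, 4.37 and 3.92. In WT, Ndufaf4 measured 4.64, 4.25 and 4.63 at 0 min, 4.46, 4.41 and 4.62 at 45 min and 4.22, 4.51 and 4.32 at 90 min. The largest positive change at 45 min was 0.33 ± 0.18 in KO for Atp5j2, which encodes the f subunit of complex V. In WT, Ndufa5 (0.29 ± 0.19) and Atp5d (-0.32 ± 0.21) were the extremes.

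Before the transcription block, no respiratory chain gene passed the test between the genotypes, and most had lower values in KO than in WT. At 0 min, 0 of 84 genes were higher and 0 lower in KO (limma), where 0% of all genes were higher and 0% lower. At an unadjusted p below 0.05, 0 were higher and 9 lower, where 3.77% of all genes were higher and 3.80% lower. The KO minus WT difference was negative for 75 genes and positive for 9, with a median of -0.21, while 5142 of all 10258 genes were negative. In bulk RNA, fewer cells of a kind and less of an mRNA per cell cannot be told apart. The median difference was -0.23 for complex I, -0.10 for complex II, -0.30 for complex III, -0.20 for complex IV, -0.22 for complex V and -0.01 for the assembly factors. All 17 genes of complex V and all 9 of complex III were negative. Other sets of abundant housekeeping mRNAs had the same sign, with medians of -0.26 over 66 ribosomal protein genes, -0.18 over 38 proteasome subunit genes and -0.23 over 77 mitochondrial ribosomal protein genes. In series B alone these medians were -0.08, -0.10 and -0.08, and that of the respiratory chain genes was -0.12. The ribosomal set was chosen by symbol and also holds a few kinase genes named Rps6k.

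**Figure D4:**
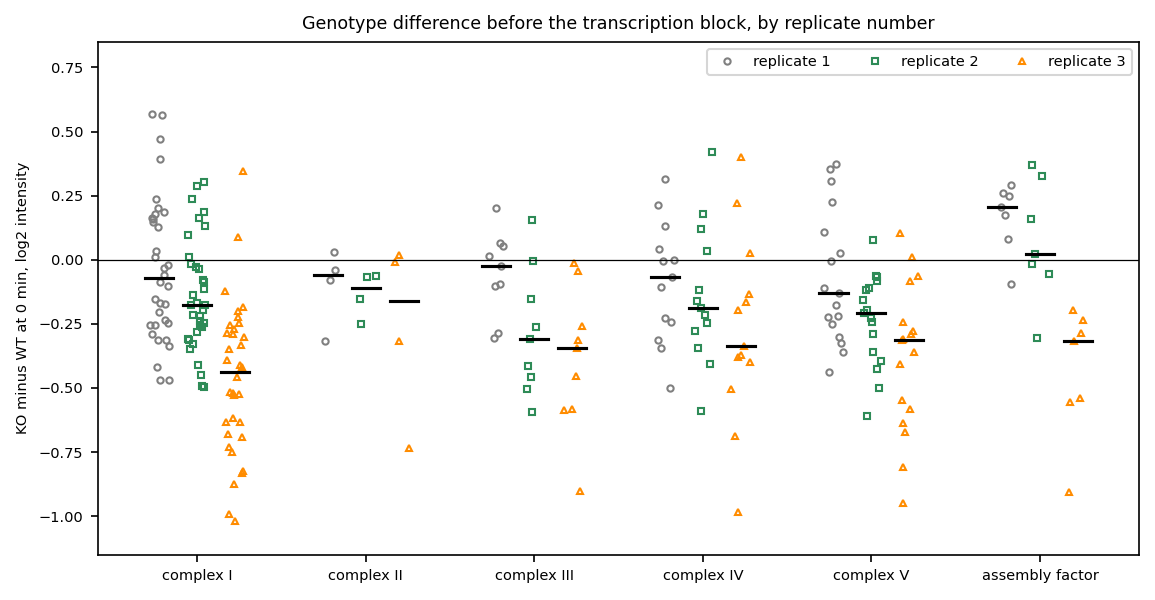
KO minus WT log2 intensity at 0 min for each tested gene, by complex and, within a complex, by replicate number (replicate 1 grey, 2 green, 3 orange); black lines are medians. For all complexes together the median is -0.05 for replicate 1, -0.18 for replicate 2 and -0.35 for replicate 3.

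The size of the median difference depended on 1 array. On replicate 3 of KO at 0 min, 75 of the 84 genes lay below their own mean, by a median of 0.31 in log2 terms, and 39 genes (46.4%) had their lowest value of all 18 arrays there, against 6.18% of all genes. The ribosomal protein genes were low on the same array, with 31 of 66 (47.0%) at their lowest. Replicate 3 of WT at 0 min stood apart upwards, where 19.7% of all genes had their highest value. So did 23 ribosomal protein genes (34.8%) and 31 mitochondrial ribosomal protein genes (40.3%). Among respiratory chain genes 11 did (13.1%), a smaller share than over all genes. More of them, 19 (22.6%), had their highest value on replicate 2 of WT at 0 min, against 7.3% of all genes. Matched by replicate number, the median KO minus WT difference was -0.05 for replicate 1, with 48 genes lower in KO, -0.18 for replicate 2, with 66 lower, and -0.35 for replicate 3, with 76 lower. Without replicate 3 of KO at 0 min the median was -0.11, with 62 of 84 genes lower in KO and 1 instead of 9 lower at an unadjusted p below 0.05, as were 267 of all 10258 genes. With series as a block on all arrays, 20 were lower at that p, as were 657 of all genes, and 0 passed the adjusted test. Without replicate 3 of WT at 0 min the median was -0.21, with 68 of 84 genes lower in KO. What sets any of these arrays apart was not tested.

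Of the single genes, Atp5md, Ndufb6 and Ndufb8 had the lowest KO minus WT differences at 0 min. Atp5md measured 9.04, 9.00 and 8.08 in KO and 9.36, 9.36 and 8.89 in WT, a difference of -0.50 ± 0.27 (adjusted p = 0.69). Ndufb6 measured 7.48, 7.23 and 6.61 in KO and 7.50, 7.64 and 7.63 in WT, a difference of -0.48 ± 0.20 (adjusted p = 0.66). Ndufb8, a membrane arm subunit of complex I, measured 6.13, 6.31 and 5.35 in KO and 6.46, 6.40 and 6.34 in WT, a difference of -0.47 ± 0.22. In each of these genes replicate 3 of KO was the lowest array by a wide margin. At the upper end were Ndufb3 (0.19 ± 0.31), the muscle isoform Cox7a1 (0.19 ± 0.21) and Ndufs1, the largest core subunit of complex I (0.11 ± 0.18). Cox7a1 lies 1.81 Mb from Zfp36 on chromosome 7 (RefSeq, GRCm38.p6), and Cox6b1, at 2.24 Mb, had a difference of -0.11 ± 0.16.

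All 3 KO arrays lay below all 3 WT arrays at 0 min for 14 genes and above them for 0, where 7.14% of all genes lay below and 3.15% above. The 14 were Ndufa8, Ndufa9, Ndufb5, Ndufb6, Ndufb7, Ndufb8, Ndufs8, Sdhb, Uqcrh, Cox4i1, Atp5d, Atp5g2, Atp5h and Atp5o. Sdhb, the iron-sulphur subunit of complex II, measured 6.56, 6.66 and 6.64 in KO and 6.88, 6.91 and 7.37 in WT, a difference of -0.43 ± 0.17 (adjusted p = 0.66). Cox4i1, the regulatory subunit IV of cytochrome c oxidase, measured 8.21, 8.10 and 7.86 in KO and 8.45, 8.44 and 8.24 in WT, a difference of -0.32 ± 0.14 (adjusted p = 0.66).

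Ndufs8, a core subunit of complex I, carries iron-sulphur clusters near the ubiquinone site. Of the 84 genes, it was the 1 whose KO arrays lay below all WT arrays both at 0 and at 90 min. How many of all genes did so at both times was not counted. Of all genes, 7.14% lay below at 0 min and 3.25% at 90 min. Ndufs8 measured 6.23, 6.28 and 5.66 in KO and 6.49, 6.59 and 6.41 in WT at 0 min, a difference of -0.44 ± 0.17 (adjusted p = 0.66). At 45 min it measured 6.33, 6.18 and 5.84 in KO and 6.16, 6.38 and 6.09 in WT, and the groups overlapped. At 90 min it measured 5.95, 6.24 and 6.01 in KO and 6.52, 6.57 and 6.51 in WT, a difference of -0.47 ± 0.17 (unadjusted p = 0.016, adjusted p = 0.69). The WT level at 45 min was thus below both other WT times.

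At the later times no gene passed the test between the genotypes. At 45 min, 0 of 84 genes were higher and 0 lower in KO (0.0195% and 0% of all genes), and by limma 0 were higher and 1 lower at an unadjusted p below 0.05 (1.77% and 2.21%). At 90 min, 0 were higher and 0 lower (0.146% and 0% of all genes), and again 0 were higher and 1 lower at an unadjusted p below 0.05 (4.06% and 1.73%). The median KO minus WT difference was -0.05 at 45 min and -0.08 at 90 min. At 45 min the extremes were Ndufaf4 (-0.49 ± 0.18, adjusted p = 1.00) and Ndufs6, an accessory subunit of complex I (0.26 ± 0.33). At 90 min they were Ndufs8 and Ndufa1 (0.21 ± 0.18). The arrays separated completely at 90 min for 4 genes, all lower in KO (Ndufa10, Ndufa11, Ndufs8 and Ndufv2), where 3.25% of all genes were lower and 6.47% higher. At 45 min they separated for Ndufs7 and Sdhc, higher in KO, and Ndufaf4, lower in KO, where 5.94% of all genes were higher and 6.91% lower.

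**Figure D5:**
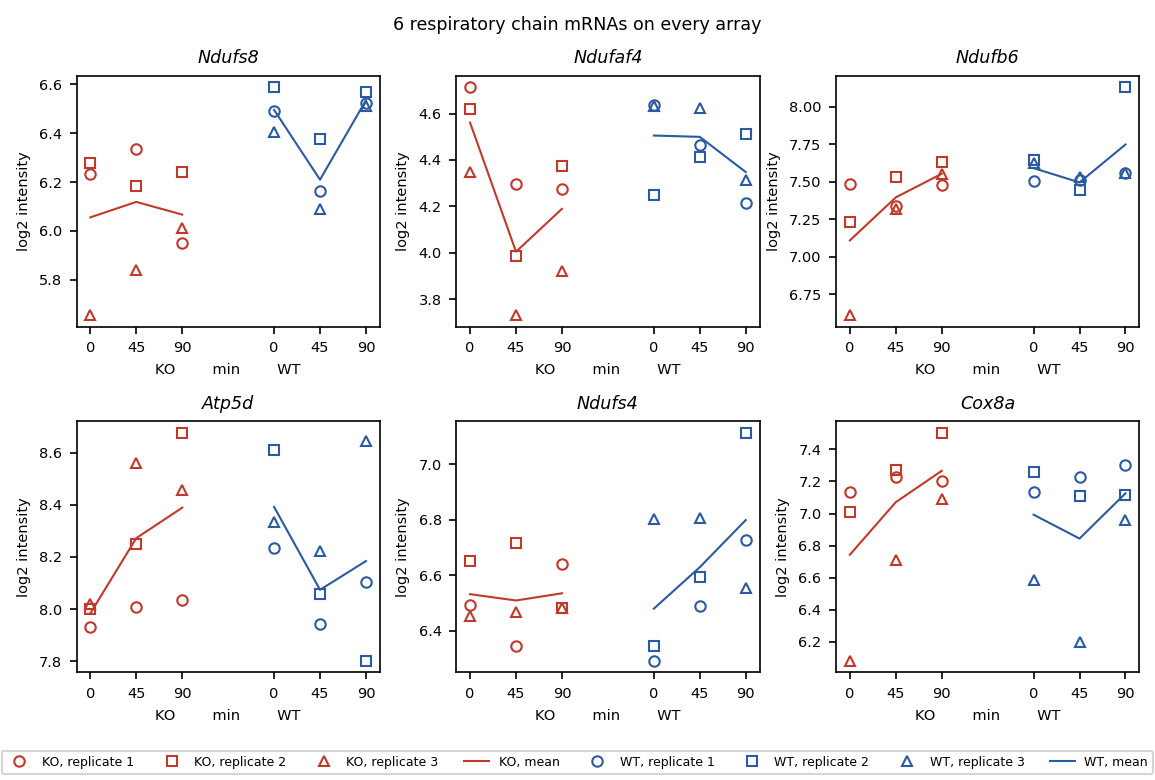
Log2 intensity on every array of Ndufs8, Ndufaf4, Ndufb6, Atp5d, Ndufs4 and Cox8a, by minutes after actinomycin D, with KO (red) left of WT (blue) and lines through the group means; each panel has its own vertical scale, which does not start at 0. Replicate 3 (triangles) of KO at 0 min is the lowest point for Ndufs8, Ndufb6 and Cox8a.

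The test the study was built for compares the loss itself. The decay difference subtracts the WT log2 change since 0 min from the KO one, and a positive value means that relatively more mRNA was left in KO. At 90 min, 0 of 84 respiratory chain genes had a higher and 0 a lower value (0.0195% and 0% of all genes), and by limma 0 passed an unadjusted p of 0.05 in either direction (1.73% of all genes were higher and 0.946% lower). At 45 min the counts were 0 and 0 (0.00975% and 0% of all genes), with 0 higher and 1 lower at an unadjusted p below 0.05 (0.721% and 1.1%). The 95% interval at 90 min lay between -1 and 1 for 72 of 84 genes, against 69.8% of all genes, with a median half-width of 0.55. For Tnf the decay difference at 90 min was 3.79 ± 0.26, with an interval from 3.25 to 4.33. No respiratory chain gene had an interval that reached past 1.45.

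The median decay difference at 90 min was 0.12, with 57 genes positive and 27 negative. It was 0.35 in series A and 0.04 in series B, and 0.01 without replicate 3 of KO at 0 min. At 45 min the median was 0.16, and 0.08 without that array. The highest value at 90 min was 0.61 ± 0.30 for Atp5d, the delta subunit of the central stalk of complex V (adjusted p = 1.00). Atp5d measured 7.93, 8.00 and 8.02 in KO at 0 min, 8.01, 8.25 and 8.56 at 45 min and 8.03, 8.68 and 8.46 at 90 min. In WT it measured 8.23, 8.61 and 8.33 at 0 min, 7.94, 8.06 and 8.22 at 45 min and 8.11, 7.80 and 8.65 at 90 min. Its KO arrays at 0 min were close together and below all WT arrays at 0 min, and its value at 45 min was also 0.61 ± 0.30. Atp5md (0.59 ± 0.39) and Cox6a1 (0.53 ± 0.38) followed, and Ndufb3 (-0.35 ± 0.43), Ndufs4 (-0.32 ± 0.25) and Cox6a2 (-0.27 ± 0.23) were at the lower end. The lowest at 45 min was Ndufaf4, with -0.55 ± 0.25.

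The title-number series gave calls where the groups of the design gave none. In a fit with series as a term, chosen after the values were seen, 11 of the 84 genes were higher and 20 lower in series A than in series B, where 17.1% of all genes were higher and 9.0% lower by limma. The largest differences were those of Cox7a2 (-0.85, limma adjusted p = 2.0472e-06), Cox6c (-0.75), Atp5mpl (-0.73) and Ndufs6 (-0.69), all small subunits. Cox6c measured 7.62 on the series A array of KO at 0 min, against 8.70 and 8.59 on those of series B, and 7.78 on the series A array of WT at 0 min, against 8.57 and 8.47. At the other end were Ndufa6 (0.42), Uqcrc1 (0.37) and Uqcrq (0.36). What the title numbers stand for is not stated. Within series B alone, 2 genes rose and 0 fell in WT at 90 min, where 7.46% of all genes rose and 5.98% fell. Cox7b, a small complex IV subunit, rose by 0.62 (adjusted p = 0.016), with 8.01 and 8.05 at 90 min against 7.39 and 7.44 at 0 min, while series A had 7.63 against 8.20. A second row for Cox7b gave a WT change of -0.05 over all arrays, against 0.22 for the row used. Ndufs4 rose by 0.60 (adjusted p = 0.041), and its series A value was -0.25. Neither passed over all arrays.

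Of the other gene lists of the pathway, the regulators were the 1 list with calls. In both genotypes at 90 min, 0 of 12 citrate cycle genes, 0 of 28 genes for cytochrome c and further assembly factors and 0 of 77 mitochondrial ribosomal protein genes passed the test in either direction. Of the citrate cycle genes, 0 reached an unadjusted p below 0.05 by limma in KO or in WT. Of the further assembly factors, 1 was lower in KO and 0 in WT, and of the mitochondrial ribosomal protein genes 1 was lower in KO and 4 in WT, where 3.80% of all genes were lower in KO and 7.25% in WT. Of the mitochondrially encoded subunits, the array measured ND3 of complex I, with changes of -0.67 ± 0.26 in KO and -0.76 ± 0.26 in WT (adjusted p = 0.72 and 0.25), and COX2 of complex IV, with 0.01 ± 0.16 in KO and 0.08 ± 0.16 in WT. Of 14 regulators of mitochondrial genes, 0 passed in KO and 2 fell in WT, where 0.224% of all genes fell in KO and 1.22% in WT. They were Nrf1, nuclear respiratory factor 1, with -0.43 ± 0.17 in KO (adjusted p = 0.72) and -1.02 ± 0.17 in WT (adjusted p = 0.0028), and Myc, with -0.58 ± 0.23 in KO (adjusted p = 0.77) and -1.08 ± 0.23 in WT (adjusted p = 0.025). Pprc1, a coactivator of these genes, had the largest change in WT, -1.10 ± 0.34, with an adjusted p of 0.17. The decay difference of Nrf1 at 90 min was 0.59 ± 0.24 (limma adjusted p = 0.999). Neither Nrf1 nor Myc passed the decay difference test, so a slower loss in KO was not shown for them.

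NRF1, the protein made from Nrf1, binds a palindromic GC-rich sequence in the promoters of many respiratory chain genes. Promoters of 300 bases, 250 before and 50 after the start, were on hand for 73 of the 90 genes (RefSeq, GRCm38.p6). Both strands were searched. The NRF1 letters GCGCANGCG were in 20 of 73 promoters (27.4%), against 6.47% of all 27025 promoters. The 27025 were 1 promoter per gene ID, whether or not the gene was on the array or reached the signal limit. No expressed or housekeeping set was searched beside them, so whether the shares are particular to respiratory chain genes was not tested. The ETS letters CCGGAAG were in 17 (23.3%, against 9.12%), and the YY1 letters AAGATGGC in 9 (12.3%, against 2.88%). The ERR letters TCAAGGTCA were in 2 (2.74%, against 0.407%), the CRE letters TGACGTCA in 4 (5.48%, against 1.88%) and the TATA letters TATAAA in 8 (11.0%, against 14.2%). The NF-kB letters GGGACTTTC were in 1 (1.37%, against 0.344%). In all, 39 of 73 held NRF1, ETS or YY1 letters, and 6 held both NRF1 and ETS letters. The NRF1 and NF-kB letters were shortened by 1 base after the longer forms had been searched. With the longer forms, 17 promoters (23.3%, against 4.78%) held the NRF1 letters and 0 the NF-kB letters (0.144% of all promoters).

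To show the shared letters, 1 NRF1 match of each complex is given with its flanks, 5′ to 3′ on the strand of the gene. Each stretch has 30 bases, with the NRF1 letters, or their reverse complement, in capitals. The gene shown for each complex is the holder with the brightest probes, a choice that orders no mRNA levels. The positions are chr2:36049348-36049377 on the minus strand for Ndufa8, chr13:74350319-74350348 on the minus strand for Sdha, chr9:108936644-108936673 on the plus strand for Uqcrc1, chr5:115349101-115349130 on the minus strand for Cox6a1, chr11:115420041-115420070 on the minus strand for Atp5h and chr4:24897960-24897989 on the plus strand for Ndufaf4.
Ndufa8, complex I: tagagcagtgCGCTTGCGCgtcgctggaga
Sdha, complex II: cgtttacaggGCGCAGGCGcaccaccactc
Uqcrc1, complex III: ttccttacagCGCTTGCGCctcagactccg
Cox6a1, complex IV: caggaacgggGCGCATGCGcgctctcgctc
Atp5h, complex V: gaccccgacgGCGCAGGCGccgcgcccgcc
Ndufaf4, assembly factor: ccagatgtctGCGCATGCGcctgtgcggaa

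The matches lay at different distances from the start, from 29 bases before it in Ndufa8 to 162 bases before it in Cox6a1, and in Uqcrc1 after it. Genes with and without the NRF1 letters had medians within 0.05 of each other in their change at 90 min. In KO, the median was 0.09 for the 20 with the letters and 0.14 for the 50 tested genes without them, and in WT -0.05 and -0.01. The KO minus WT medians at 0 min were -0.19 with and -0.22 without the letters. With the longer NRF1 letters the medians were 0.12 with and 0.13 without them in KO, and -0.04 and -0.02 in WT. These are descriptions, and no test was made of them.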

How the data were processed

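The 18 samples were each measured on an Affymetrix Mouse Gene ST array, per the labels. The authors normalized and summarised the arrays with RMA (Affymetrix Expression Console), in versions not given in the sources used here, per the submitters' processing notes. Deposited intensities were taken as linear, judging from their range, and were turned into log2 values without an offset. The platform annotation gives 1 symbol for 21039 of the 25138 rows, several for 1485 and none for 2614; 84 rows kept an older symbol. The brightest row per symbol was kept. A gene was tested if any of its 6 group means was at or above the median row mean, an intensity of 8.16, which left 10258 genes. Of the members, 74 had 1 row and 16 several; 6 further rows that pair a member symbol with another symbol were not used.

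Group means were fitted over all arrays with limma 3.58.1 in R 4.3.3, with Benjamini-Hochberg adjustment at 0.05 within each comparison; the procedure was tested on simulated data. Errors of log2 changes are SE from this fit. The members and lists were chosen with earlier results of these data known. Named genes were members past the threshold, or else the 3 largest changes in each direction (1 in minor comparisons), the 2 brightest of each complex, isoforms and members below the limit.

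In their deviations from group means, same-numbered replicates correlated above 0.1 in every comparison of 2 groups except the WT change at 90 min. There the lowest correlation was -0.287. The reported fit held no term for pairs, so its SE, intervals and p-values are unpaired. Pairs entered only through the replicate block among the alternatives. The ranges were 0.413 to 0.694 for the KO change at 90 min, 0.321 to 0.677 for that at 45 min, 0.333 to 0.550 for the WT change at 45 min, and 0.156 to 0.369, 0.197 to 0.527 and 0.183 to 0.651 for the genotypes at 0, 45 and 90 min. Alternatives were other filters, normalizations, row choices, an offset of 16, an intensity trend, replicate and series blocks, series B alone and each array left out.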

Additional observations from a re-analysis of the deposited data

How the results depend on the processing

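Of the 9 comparisons, 8 gave 0 respiratory chain genes past the threshold under all 28 alternatives, and WT at 90 min against 0 min gave 0 under all but series B alone, where 2 genes rose. Leaving out each array gave 0 to 0 genes in every comparison. With the replicate block, 0 genes passed in every comparison, so it changed no call. The median change ranged over the alternatives from 0.01 (without replicate 3 of KO at 0 min) to 0.17 in KO at 90 min and from -0.04 to 0.09 (median centring) in WT at 90 min. The KO minus WT median ranged from -0.26 to -0.11 at 0 min, from -0.07 to 0.00 at 45 min and from -0.19 (median centring) to -0.03 at 90 min. The KO median at 45 min ranged from -0.01 (without replicate 3 of KO at 0 min) to 0.17 and the WT median from -0.10 to -0.04. The decay difference medians ranged from 0.08 to 0.21 at 45 min and from 0.01 to 0.18 at 90 min. Signals near the limit of 3.03 understate changes, which touches Cox4i2, Cox6a2 and Ndufaf5.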
